A study of Homo sapiens with 10 samples.

Results

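Replication-dependent histone genes are short genes that mostly lack introns and encode the histones needed to package newly copied DNA. They were taken here as every gene whose symbol starts with HIST1H, HIST2H, HIST3H or HIST4H. This gave 70 of the 23243 genes shared by the 4 deposited tables: 6 H1, 17 H2A, 20 H2B, 13 H3 and 14 H4 genes. On hg19, 56 of them lie on chromosome 6, 13 on chromosome 1 and 1 (HIST4H4) on chromosome 12. The values are FPKM (fragments per kilobase of transcript, scaled to the mapped fragments of the library), a level per length. Levels were compared between genes, within the limits given below for repeated sequence and shared loci.

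The study expressed PcTF, a synthetic activator made of the CBX8 chromodomain, which binds the silencing mark H3K27me3, joined to mCherry and the VP64 activation domain. PcTF cells were compared with mock-transfected cells in 3 cancer lines: U-2 OS osteosarcoma and SK-N-SH neuroblastoma, both 96 h after transfection, and K562 leukaemia, 48 h after transfection. The fourth table set the authors' mean of 3 PcTF libraries (the transiently transfected U-2 OS library and 2 of the isogenic stable line U2OS-PcTF) against the stable line U2OS-dTF, which carries the fusion without the chromodomain. This make-up was read from the sample labels. The study's methods describe more replicates of the stable lines than the labels show, a conflict that was not settled and that bears on every value of the mean and of U2OS-dTF. Both stable lines were kept with 1 µg/mL doxycycline for 96 h to release the transgene from TetR repression. Transfected cultures were not described as sorted, so PcTF libraries hold RNA of cells with and without the plasmid. Each group otherwise has 1 library, the mean column hides its replicates, and no ratio below has a replicate check or a p-value. In bulk RNA, a smaller share of S-phase cells and less histone mRNA per S-phase cell cannot be told apart.

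In dividing cells these genes are transcribed from the start of S phase, when NPAT recruits the machinery to histone locus bodies. Their mRNAs typically end in a conserved stem-loop in place of a poly(A) tail. SLBP binds that stem-loop, the U7 snRNP with LSM10 and LSM11 directs the cut after it, and the mRNAs are degraded when DNA synthesis stops. H2A, H2B, H3 and H4 form the nucleosome core, and H1 binds the linker DNA between nucleosomes.

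The stem-loop was the feature that nearly all members shared. A search of the hg19 sequence for GG, 3 pyrimidines, TT, a pyrimidine, T, any base, A, 3 purines and CC on the gene's strand found it in, or just after, 68 of 70 members. In longer listed loci, such as those of HIST1H2BD, HIST1H2BK, HIST1H4I and HIST2H2BF, it lay well inside the locus. The exceptions, the pseudogenes HIST1H2APS1 and HIST2H2BA, were listed at 0 in all 8 and in 6 of 8 value columns. The 68 stem-loops had 10 different cores. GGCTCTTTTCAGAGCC was the core of 38 members, none of them H4. All 14 H4 genes had a stem of GGCCC paired with GGGCC, and 10 of them shared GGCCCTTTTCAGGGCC. The stem-loops below are those of members on which the results turn, as DNA on the gene's strand, with the 16-base core in capitals.
HIST1H1A: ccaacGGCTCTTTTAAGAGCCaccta
HIST1H1E: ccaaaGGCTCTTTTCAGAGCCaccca
HIST1H1C: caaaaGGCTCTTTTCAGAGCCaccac
HIST1H2AG: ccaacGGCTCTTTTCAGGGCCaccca
HIST2H2AC: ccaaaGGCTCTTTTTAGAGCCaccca
HIST1H2BF: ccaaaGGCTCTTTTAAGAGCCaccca
HIST1H3B: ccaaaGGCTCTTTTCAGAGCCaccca
HIST1H4E: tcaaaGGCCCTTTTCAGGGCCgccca
HIST1H4I: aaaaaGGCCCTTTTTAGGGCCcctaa
Their hg19 positions are HIST1H1A at chr6:26017260-26017285 (minus strand), HIST1H1E at chr6:26157318-26157343 (plus strand), HIST1H1C at chr6:26055967-26055992 (minus strand), HIST1H2AG at chr6:27101289-27101314 (plus strand), HIST2H2AC at chr1:149858936-149858961 (plus strand), HIST1H2BF at chr6:26200191-26200216 (plus strand), HIST1H3B at chr6:26031820-26031845 (minus strand), HIST1H4E at chr6:26205224-26205249 (plus strand) and HIST1H4I at chr6:27107428-27107453 (plus strand).

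Promoters differed by class as well. RefSeq windows from 250 bases before to 50 bases after the start (GRCh38.p14) were matched for 62 members. CCAAT, on either strand, was in 53 of the 62 windows (85.5%, against 34.6% of all 35116 promoter windows), including all 6 H1, 15 H2A, 18 H2B and 11 H3 windows but 3 of 12 H4 windows. The octamer ATTTGCAT was in 14 of 18 H2B and 11 of 15 H2A windows, in 1 of 11 H3 windows, and in no H1 or H4 window (1.77% of all promoters). The H1 box AAACACA was in all 6 H1 windows and in 2 of the other 56 (5.64% of all promoters). TATAAA was in 41 windows (66.1%, against 11.5% of all promoters). HIST1H2AD and HIST1H3D share 1 window, which is counted in both classes and is the H3 window with the octamer. Windows of neighbouring H2A and H2B genes on opposite strands also overlap. In HIST1H2AC and HIST1H2BC, for example, the octamer is 1 site counted in both classes. The H2A and H2B counts are therefore not independent. Each motif was searched on its own, on both strands and with overlapping matches counted, and a match is not evidence of binding. The windows shown are those of HIST1H1A and HIST1H1B, H1 genes with opposite levels across the lines, and of HIST1H2BF, the leading H2B gene of the SK-N-SH and transient U-2 OS libraries. Capitals mark the 4 motifs on either strand.
HIST1H1A: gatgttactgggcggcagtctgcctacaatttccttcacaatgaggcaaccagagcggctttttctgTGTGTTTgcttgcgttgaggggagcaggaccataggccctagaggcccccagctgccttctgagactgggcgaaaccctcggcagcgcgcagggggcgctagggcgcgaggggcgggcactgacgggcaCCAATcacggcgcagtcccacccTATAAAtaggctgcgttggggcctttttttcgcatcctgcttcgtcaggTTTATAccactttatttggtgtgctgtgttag
HIST1H1B: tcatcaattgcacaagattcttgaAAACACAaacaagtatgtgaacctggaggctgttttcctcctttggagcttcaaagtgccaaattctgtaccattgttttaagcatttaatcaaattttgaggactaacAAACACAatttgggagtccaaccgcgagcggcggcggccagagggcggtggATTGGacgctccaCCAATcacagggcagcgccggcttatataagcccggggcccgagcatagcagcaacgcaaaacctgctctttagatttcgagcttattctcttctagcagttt
HIST1H2BF: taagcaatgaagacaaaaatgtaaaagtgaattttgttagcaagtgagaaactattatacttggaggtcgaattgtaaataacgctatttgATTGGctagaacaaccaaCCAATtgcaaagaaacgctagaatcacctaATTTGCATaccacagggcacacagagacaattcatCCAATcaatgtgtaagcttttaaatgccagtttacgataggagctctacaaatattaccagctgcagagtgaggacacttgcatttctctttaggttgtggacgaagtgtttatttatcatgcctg
They are chr6:26017738-26018037 (minus strand), chr6:27867539-27867838 (minus strand) and chr6:26199266-26199565 (plus strand) on GRCh38.p14. HIST1H1A held CCAAT 54 bases and TATAAA 31 bases before the start, and its H1 box was a match on the opposite strand 183 bases before it. HIST1H1B held CCAAT 53 bases before the start, no TATAAA, and H1 boxes at 117 and 226 bases.

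How much of each gene short reads can see set a limit on the levels. For the 62 members with a locus of at most 790 bp, the share of 50-base windows found once in hg19 was counted, 50 bases being the read length. It was 90% or more for 46 members, and 50% to 90% for 7. It was 0% for HIST2H2AA3, HIST2H3C and HIST2H4A, whose copies lie beside them, 22.1% for HIST2H3D, 8.80% for HIST1H4J and 8.20% for HIST1H4K. The first 4 of these were listed at 0 in all 8 columns, and their partners HIST2H2AA4, HIST2H3A and HIST2H4B are not in the tables analysed here. A 0 for them was therefore not read as absence of the mRNA. Among the 46 members with 90% or more unique windows, 4 were listed at 0 throughout: the testis gene HIST1H2BA, the pseudogene HIST1H2APS1, HIST1H4F and HIST1H4G. HIST1H2BK and HIST1H4I share 1 locus in the files (chr6:27106072-27114637), and so do HIST1H2AD and HIST1H3D (chr6:26197012-26199471), so the split of reads within each pair is uncertain.

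The low FPKM values were taken as steps of whole reads, which gave the depth. The total was set where at least 90% of low values of short histone and olfactory receptor genes were whole reads within 3%. That share was the rule for choosing the total, so it is no check of it. The implied totals were 4.27 and 4.86 M fragments for U-2 OS PcTF and mock and 6.31 and 5.13 M for the SK-N-SH pair. They were 7.32 and 4.63 M for the K562 pair and 5.69 M for U2OS-dTF (M, mega). Over the histone genes alone the whole share was 75% to 100%, so the read numbers below are estimates. The mean column gave no such steps. At these depths 374.6 FPKM of HIST1H2BF in U-2 OS PcTF stood for 368 reads, and 1 read of an H2A gene for about 1 FPKM. CBX8, whose chromodomain sequence PcTF carries, was at 14.3, 8.85 and 6.43 FPKM in the PcTF libraries of K562, SK-N-SH and U-2 OS, against 1.59, 0.287 and 0.610 FPKM in their mock libraries. The erythroid and sympathetic markers went with the line labels. The 7 erythroid markers summed to 15810 and 4610 FPKM in K562 PcTF and mock and to at most 1.61 FPKM elsewhere. Of 6 sympathetic markers, 4 were listed at 0 in both transient U-2 OS libraries and only TH was at 0 in SK-N-SH. Of 5 bone markers, SPARC had 171 and 271 FPKM in U-2 OS PcTF and mock but COL1A2 was listed at 0 there, and SPARC and COL1A1 were also high in SK-N-SH. The 5 summed to 190 and 307 FPKM in U-2 OS PcTF and mock and to 520 and 653 FPKM in the SK-N-SH pair. They therefore did not set U-2 OS apart from SK-N-SH.

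The detected histone genes differed in part between the lines. In K562 PcTF and mock, 44 and 38 members reached 1 FPKM. In SK-N-SH PcTF and mock 41 and 38 did, and in U-2 OS PcTF and mock 34 and 32 did. Over all columns of a line, 26 members reached 1 FPKM in all 3 lines and 13 in none. SK-N-SH and K562 shared 10 members that stayed under 1 FPKM in every U-2 OS column. The order of member levels was kept between PcTF and mock of a line (Spearman rho 0.803 over 45 members in K562, 0.9 over 44 in SK-N-SH, 0.908 over 35 in U-2 OS). It was less alike between mock libraries of different lines (0.519 for SK-N-SH and K562 over 46 members, 0.401 for U-2 OS and K562 over 46, 0.261 for SK-N-SH and U-2 OS over 47). These are descriptions over genes that share library, depth and counting. The counts over lines and the correlations are not set beside those of all genes, so they do not show a trait particular to histone genes.

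**Figure D1:**
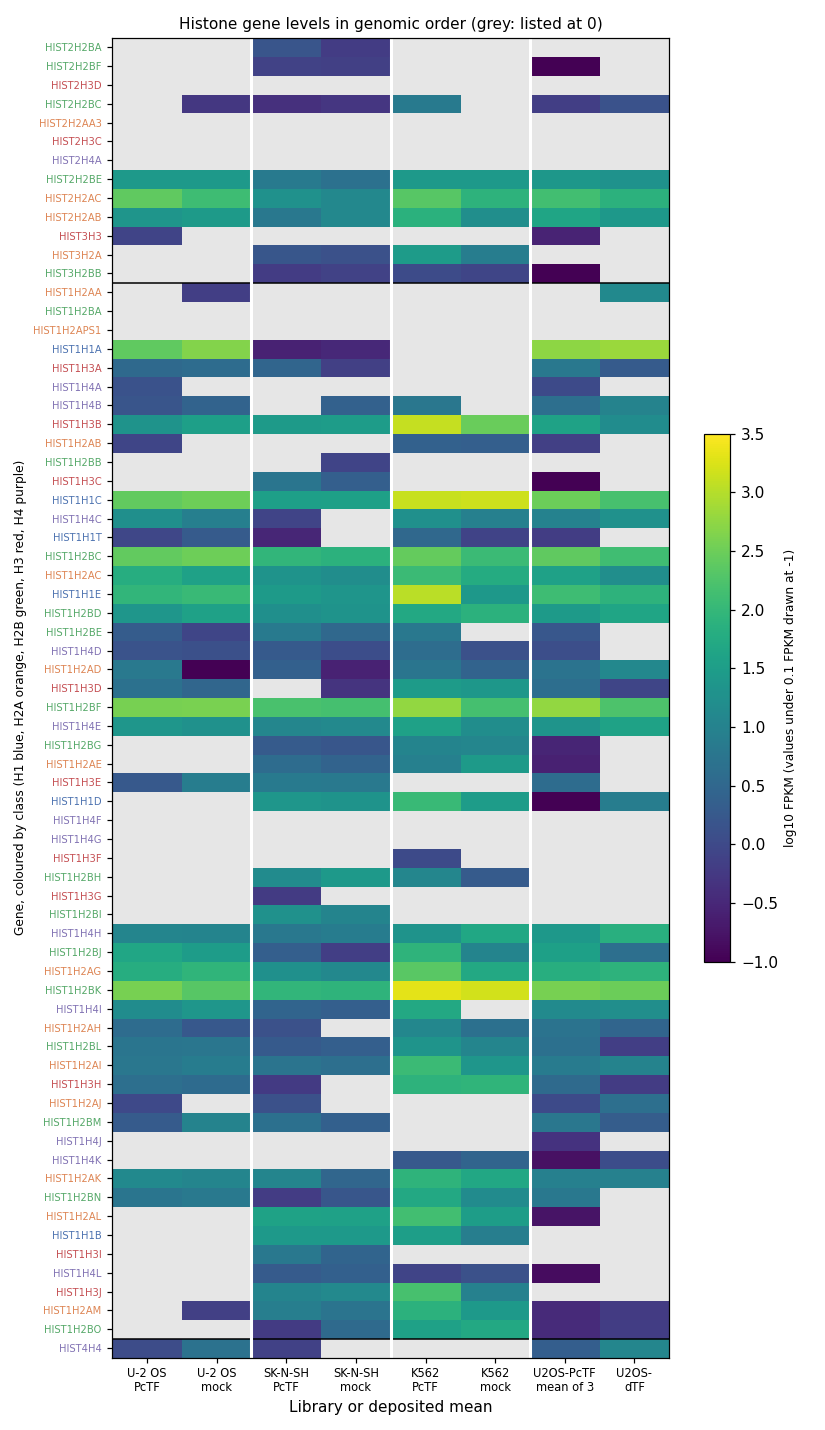
Level of each of the 70 members (rows, in order along chromosomes 1, 6 and 12, divided by black lines) in each library or deposited mean (columns), as log10 FPKM by colour, with grey for values listed at 0. HIST1H1A is bright in the 4 U-2 OS columns only, 2 blocks of 7 neighbours are grey or dark in the transient U-2 OS columns, and HIST1H1E is bright in K562 PcTF beside a dimmer mock.

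The linker histone genes showed the line difference most plainly. HIST1H1A, on the minus strand at chr6:26017260-26018040, had 257 FPKM in U-2 OS PcTF (636 reads) and 470 FPKM in U-2 OS mock (1327 reads). It had 553 FPKM in the U2OS-PcTF mean and 672 FPKM in U2OS-dTF. In SK-N-SH it had 0.271 and 0.333 FPKM in PcTF and mock, 1 read each, and in K562 it was listed at 0 in both, where 3 reads would be 0.706 and 1.12 FPKM. HIST1H1A thus held 42.2% of the H1 FPKM in U-2 OS PcTF, beside 42.8% for HIST1H1C, and 52.3% in U-2 OS mock.

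HIST1H1B ran the other way. It was listed at 0 in all 4 U-2 OS columns, where 3 reads would be 1.19 FPKM in PcTF, 1.05 FPKM in mock and 0.894 FPKM in U2OS-dTF. It had 26.9 and 26.3 FPKM in SK-N-SH PcTF and mock (100 and 79 reads), and 33.6 and 8.38 FPKM in K562 PcTF and mock (145 and 23 reads). HIST1H1D had the same order in the transient libraries. It was listed at 0 in U-2 OS PcTF and mock, and had 23.2 and 20.5 FPKM in SK-N-SH PcTF and mock and 113 and 31.3 FPKM in K562 PcTF and mock. In the stable lines, however, HIST1H1D had 0.0399 FPKM in the U2OS-PcTF mean and 8.13 FPKM in U2OS-dTF (27 reads).

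HIST1H1C and HIST1H1E were present in every library. HIST1H1C had 1351 and 1454 FPKM in K562 PcTF and mock, 35.2 and 36.8 FPKM in the SK-N-SH pair and 260.2 and 317 FPKM in the U-2 OS pair. HIST1H1E had 90.7 and 110.3 FPKM in U-2 OS PcTF and mock, 28 and 22.5 FPKM in the SK-N-SH pair and 1083 and 24.6 FPKM in the K562 pair. The K562 gap was the widest of the 3 transient comparisons among single-exon members with reads in both libraries, and is described with the K562 comparison. HIST1H1T, the testis H1 gene, did not exceed 3.37 FPKM in any column.

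**Figure D2:**
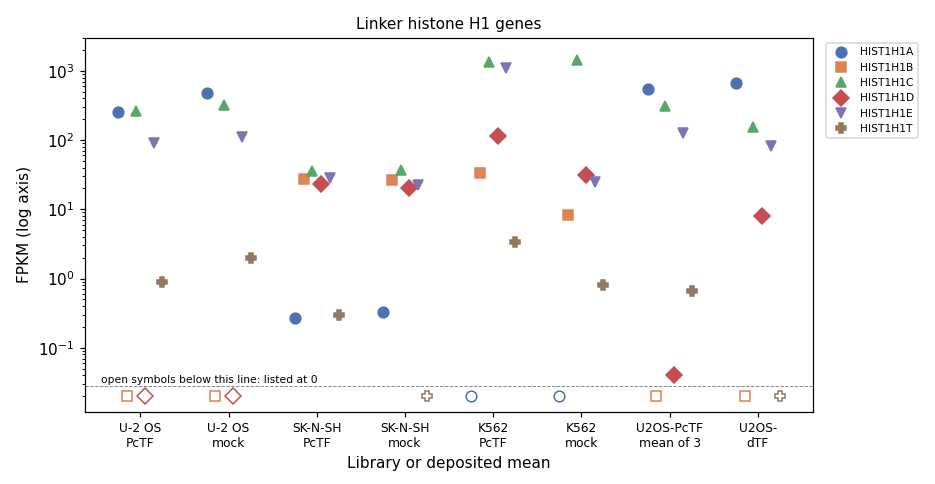
Level of the 6 H1 genes in each library or deposited mean, as FPKM on a log axis, with open symbols for values listed at 0. HIST1H1A stands above 250 FPKM in the 4 U-2 OS columns and under 1 FPKM elsewhere, HIST1H1B is listed at 0 in the U-2 OS columns, and HIST1H1E in K562 PcTF (1083 FPKM) lies far above K562 mock (24.6 FPKM).

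Some of the members under 1 FPKM in U-2 OS lay side by side. Ordered along the chromosome, 7 neighbours at chr6:26234440-26273640 (HIST1H1D, HIST1H4F, HIST1H4G, HIST1H3F, HIST1H2BH, HIST1H3G and HIST1H2BI) were all under 1 FPKM in both transient U-2 OS libraries. Of these, HIST1H4F and HIST1H4G were listed at 0 in every column, HIST1H3F and HIST1H3G reached at most 1.029 and 0.594 FPKM anywhere, and HIST1H1D, HIST1H2BH and HIST1H2BI were above 10 FPKM in both SK-N-SH libraries. Also under 1 FPKM were the last 7 members of the chromosome 6 cluster, at chr6:27833107-27861669 (HIST1H2AL, HIST1H1B, HIST1H3I, HIST1H4L, HIST1H3J, HIST1H2AM and HIST1H2BO). In that last block HIST1H2AL had 39.4 and 36.9 FPKM in SK-N-SH PcTF and mock and 138 and 32.1 FPKM in K562. HIST1H3J had 10.8 and 13.3 FPKM in SK-N-SH PcTF and mock and 154 and 9.35 FPKM in K562. A further run of 7 on chromosome 1, from HIST2H2BA to HIST2H4A, holds the near-identical copies named above. K562 had a stretch of 6 neighbours at the start of the chromosome 6 cluster (HIST1H2AA, HIST1H2BA, HIST1H2APS1, HIST1H1A, HIST1H3A and HIST1H4A), all listed at 0 in both libraries. Its first 4 members were under 1 FPKM in SK-N-SH too, and its first 3 in transient U-2 OS. These blocks were noticed in the levels and were not tested.

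By class, H2B took the largest part of the summed member FPKM in all 4 PcTF columns and in 3 of the 4 control columns. Its share was 37.9% and 45.7% in K562 PcTF and mock, 55.3% and 56.9% in the SK-N-SH pair, 49.3% and 44.1% in the U-2 OS pair, and 48.2% in the U2OS-PcTF mean. In U2OS-dTF it was 33.3%, below the H1 share of 45.0%. HIST1H2BF, on a 430 bp locus at chr6:26199787-26200216, led H2B in transient U-2 OS (375 and 399 FPKM in PcTF and mock) and in the SK-N-SH pair (159.8 and 151 FPKM). HIST1H2BK led it in K562, with 2090 and 1548 FPKM in PcTF and mock, in the locus it shares with HIST1H4I.

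H3 had small sums apart from K562, and H4 had small sums in every column. HIST1H3B led H3 in every column, with 1255 and 296 FPKM in K562 PcTF and mock, 28 and 30.9 FPKM in the SK-N-SH pair, 20.9 and 35.1 FPKM in the U-2 OS pair, and 39.8 and 15.4 FPKM in the U2OS-PcTF mean and U2OS-dTF. H4 genes held at most 8.17% of the sum (U2OS-dTF) and 1.64% and 1.77% in K562 PcTF and mock. Some H3 and H4 copies are hidden from unique reads, as given above, so these sums can miss part of the class. They can also be too high, since HIST1H3D and HIST1H4I lie in shared loci with an uncertain split of reads. HIST1H4I held 36.3% of the H4 FPKM in K562 PcTF.

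**Figure D3:**
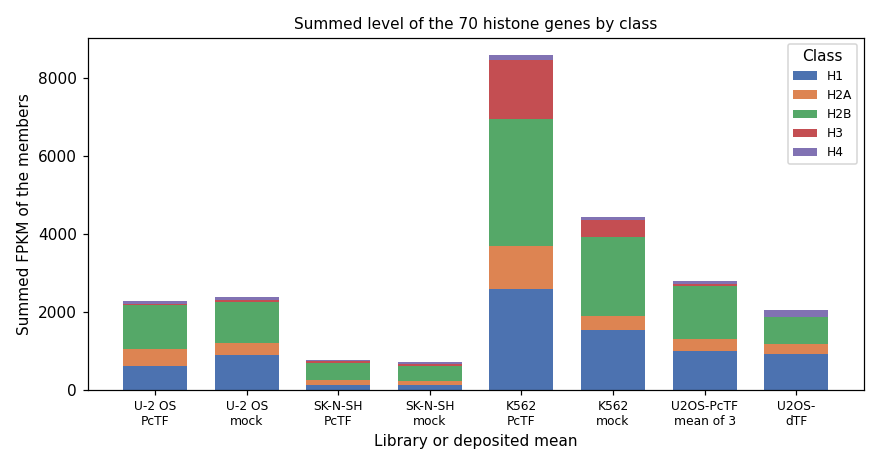
Summed FPKM of the 70 members in each library or deposited mean, stacked by class. The total was 8606 FPKM in K562 PcTF against 4422 in K562 mock, and 2275 and 2371 in U-2 OS PcTF and mock.

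For the comparisons, a member counted as past 2-fold when the log2 ratio of FPKM, with 0.1 FPKM added to both values, was at least 1 or at most -1, among genes with at least 1 FPKM in either column. The same counts over all genes are the background. Ratios of low members are understated by the added 0.1 FPKM and depend on it where 1 value is 0.

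In U-2 OS, most abundant histone genes stayed within 2-fold between PcTF and mock. Of 35 members that passed the filter, 5 were 2-fold higher with PcTF (14.3%, against 12.1% of 12403 genes) and 4 were 2-fold lower (11.4%, against 5.57% of genes). Their median log2 ratio was -0.09, against 0.08 over all genes. Of 61 non-histone genes with loci under 800 bp, 20 were 2-fold higher (32.8%) and 11 lower (18%). The part of gene length was not tested. The summed FPKM of the members was 2275 in PcTF and 2371 in mock. Within it the classes moved in opposite directions. The H1 sum was 608.5 FPKM in PcTF and 899.3 FPKM in mock, and the H2A sum 435.8 and 300.9 FPKM. Among the 18 members with at least 10 FPKM in both libraries, 1 was past 2-fold (HIST2H2AC) and the lowest log2 ratio was -0.87 (HIST1H1A).

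Of the 5 higher members, HIST2H2AC was the sole abundant gene. It had 253 FPKM in U-2 OS PcTF and 126 FPKM in mock (145 reads), 2.01-fold from the reads with an exact Clopper-Pearson 95% interval of 1.63 to 2.48. That interval, like all below, covers counting error only and compares these libraries, not the conditions. The remaining 4 were HIST1H2AD, at 6.68 and 0.00281 FPKM in PcTF and mock in a shared locus, and HIST1H4A, HIST1H2AH and HIST1H2BE, each with at most 6 reads over both libraries. HIST1H2AH had 4 and 2 reads in PcTF and mock, and HIST1H2BE 2 and 1, so neither differed beyond counting error.

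The 4 lower members were also sparse. HIST1H2BM had 1.93 and 10.2 FPKM in U-2 OS PcTF and mock (2 and 12 reads), 0.190-fold with an interval of 0.0206 to 0.853. HIST1H3E had 1.81 and 7.93 FPKM (2 and 10 reads), and its interval of 0.0243 to 1.07 included 1. HIST1H1T and HIST4H4 made up the rest, with 7 and 6 reads over both libraries. The abundant HIST1H1A was lower without passing 2-fold, at 0.546-fold (interval 0.496 to 0.601), and HIST1H1C was at 0.822-fold (0.738 to 0.915).

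In SK-N-SH the abundant members stayed within 2-fold. Of 44 members that passed the filter, 10 were 2-fold higher with PcTF (22.7%, against 5.79% of 11946 genes). A further 3 were 2-fold lower (6.82%, against 2.67% of genes). The median log2 ratio was 0.27 against 0.10 over all genes. Of 60 non-histone genes with loci under 800 bp, 21 were 2-fold higher (35%) and 17 lower (28.3%). The part of gene length was not tested. The 17 members with at least 10 FPKM in both libraries held none past 2-fold. The calls came from low counts. Of the 8 single-exon members among the 10 higher ones, 4 had fewer than 10 reads over both libraries and 1 had an interval that left out 1. The 3 lower members (HIST1H2BN, HIST1H2BO and HIST1H4B) all had fewer than 10 reads.

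Among the higher SK-N-SH members, the interval that left out 1 was that of HIST1H2AK, with 10.99 FPKM in PcTF and 3.01 FPKM in mock (18 and 4 reads). HIST1H2BH, within 2-fold, was lower, with 14.9 and 27.0 FPKM in PcTF and mock (0.551-fold, interval 0.301 to 0.990). The largest ratios belonged to genes listed at 0 in mock: HIST1H2AH and HIST1H2AJ had 1.33 FPKM each in PcTF, which was 2 reads. HIST1H3A had 2.95 and 0.726 FPKM in PcTF and mock (5 reads and 1 read), and HIST1H2AD, in its shared locus, 2.44 and 0.271 FPKM. The main genes of the line were level: HIST1H2BF had 160 and 151 FPKM in PcTF and mock (1.06-fold, interval 0.868 to 1.30), HIST1H1C was at 0.960-fold (0.729 to 1.27) and HIST1H3B at 0.908-fold (0.589 to 1.40).

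In K562 most histone genes were higher with PcTF. Of 45 members that passed, 26 were 2-fold higher (57.8%, against 28.6% of 11545 genes) and 2 were 2-fold lower (4.44%, against 11.6% of genes). The median log2 ratio was 1.42, against 0.37 over all genes, and 1.24 over 44 members (without HIST1H4I) when values listed at 0 were set at the 3-read limit. The summed FPKM was 8606 in PcTF and 4422 in mock. Members 2-fold higher were found in all 5 classes: 4 of 5 H1, 8 of 13 H2A, 7 of 14 H2B, 3 of 5 H3 and 4 of 8 H4 members that passed. The H4 calls were thin. HIST1H4E alone of the 4 had an interval that left out 1 (1.30 to 4.88). The intervals of HIST1H4B and HIST1H4D included 1, and HIST1H4I, in a shared locus, has none. HIST1H4H, the leading H4 gene in mock, was lower. Of the 25 single-exon members among the 26, 20 had a counting interval that left out 1.

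HIST1H1E stood furthest apart. It had 1083 FPKM in K562 PcTF (4631 reads) and 24.6 FPKM in K562 mock (67 reads), 43.7-fold with an interval of 34.4 to 56.5. Its share of the H1 class was 41.9% in PcTF and 1.62% in mock. HIST1H1C, which held 95.7% of the class in mock, was at 0.929-fold (5255 and 3577 reads in PcTF and mock, interval 0.890 to 0.970). HIST1H1D was at 3.58-fold (2.84 to 4.57). HIST1H1E was within 2-fold in the other comparisons. Its log2 ratio was 0.31 in SK-N-SH, -0.28 in U-2 OS (0.823-fold, interval 0.690 to 0.979) and 0.63 in the U2OS-PcTF mean over U2OS-dTF.

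HIST1H3J came next, with 154 FPKM in K562 PcTF (313 reads) and 9.35 FPKM in mock (12 reads), 16.5-fold (interval 9.31 to 32.3). HIST1H3B, the leading H3 gene, had 1255 and 296 FPKM in PcTF and mock (4.23-fold, interval 3.79 to 4.73). HIST1H2BJ had 85.7 and 10.8 FPKM (7.95-fold, 4.61 to 14.8). HIST1H2BF was at 3.83-fold (3.24 to 4.56), HIST1H2AG at 4.25-fold (3.31 to 5.53) and HIST2H2AC at 2.68-fold (2.12 to 3.43).

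Of the 26 higher members, 5 were listed at 0 in K562 mock. HIST1H4I had 51.1 FPKM in K562 PcTF, but HIST1H2BK in the same locus had 2090 and 1548 FPKM, so its 0 rests on how reads were split. HIST2H2BC, a pseudogene with 20.5% unique windows, had 7.13 FPKM in PcTF (20 reads), and its counting interval began at 3.12-fold. HIST1H2BE had 6.42 FPKM in PcTF (11 reads), with an interval from 1.59-fold. HIST1H4B had 6.14 FPKM in PcTF (7 reads), and its interval, from 0.911-fold, included 1. HIST1H3F had 1.029 FPKM in PcTF, under the 3-read limit of the mock library, so no fold is given.

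The 2 lower members in K562 were HIST1H2AE, with 8.99 and 27.9 FPKM in PcTF and mock (0.323-fold, interval 0.189 to 0.539), and HIST1H4H, with 20.6 and 47.6 FPKM (0.438-fold, 0.258 to 0.734). HIST1H2BK, HIST1H3H, HIST1H2BG and HIST1H2BO stayed within 2-fold, the last with 37.9 and 52.0 FPKM in PcTF and mock.

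**Figure D4:**
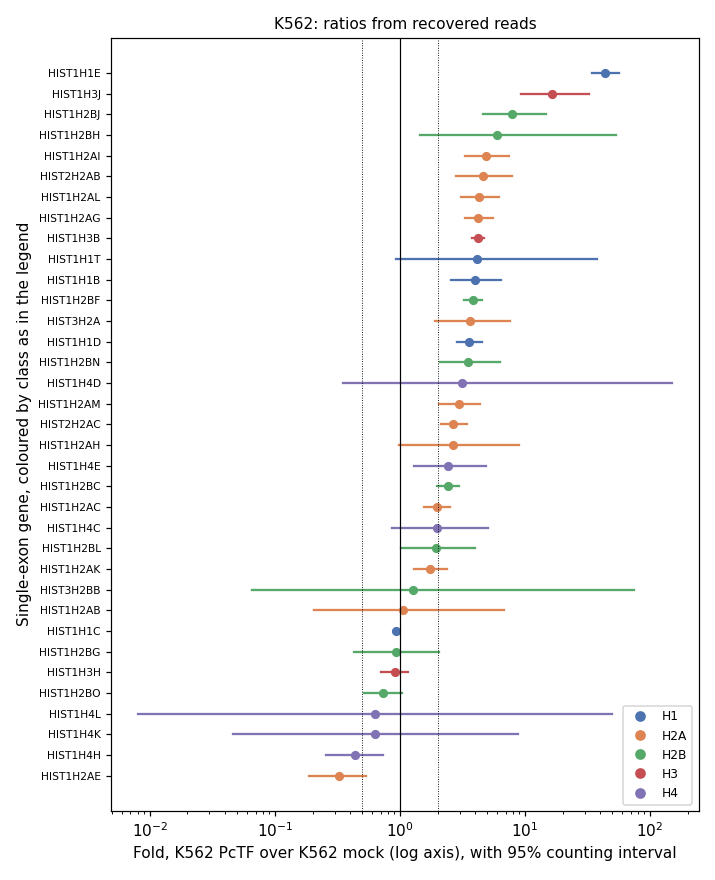
Fold of K562 PcTF over K562 mock for the 35 single-exon members with reads in both libraries and at least 1 FPKM in either (points, log axis), with exact 95% counting intervals (bars) and dotted lines at 2-fold either way. The interval lies above 1 for 21 members and below 1 for 3, and HIST1H1E and HIST1H3J stand furthest right.

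Other RNAs also differed between these K562 libraries. All genes with at least 1 FPKM in both had a median log2 ratio of 0.28, and the count of 2-fold higher members was 24 after subtracting it. A list of 397 other RNAs without a poly(A) tail held RMRP, RPPH1 and small nucleolar, Cajal body and nuclear RNAs. Of these, 129 passed the filter in K562, with 92 of them 2-fold higher and 12 of them 2-fold lower with PcTF. The listed RNAs summed to 86700 FPKM in PcTF and 24650 FPKM in mock. RPPH1, the RNA of RNase P, had 147 and 38.7 FPKM. Of 57 non-histone genes with loci under 800 bp, 32 were 2-fold higher (56.1%) and 9 lower. Without the 16 of them on that RNA list, 18 of 41 were higher. The shares of all genes in K562 were 28.6% higher and 11.6% lower. The part of RNA class and of gene length in the histone result was not tested. The erythroid markers also had 3.43 times the summed FPKM in PcTF, and their part was not tested either.

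Factors that make histone mRNA were 2-fold higher in K562 about as often as all genes. Of 20 factors that passed in K562, 5 were 2-fold higher with PcTF (LSM11, SLBP, SRRT, SYMPK and UPF1) and none was lower, beside 28.6% higher and 11.6% lower of all genes, with a median of 0.39. SLBP, which binds the stem-loop, had 207 and 62.1 FPKM in K562 PcTF and mock. LSM11, a U7 snRNP protein, had 3.03 and 0.362 FPKM. NPAT had 17.2 and 22.7 FPKM, CASP8AP2, a histone locus body protein, 11.2 and 11.7 FPKM, and ZNF473, which acts in 3′ end cutting, 21.5 and 24.8 FPKM. In the SK-N-SH and U-2 OS pairs no factor passed 2-fold either way. Of all genes, 5.79% were higher and 2.67% lower in SK-N-SH, and 12.1% higher and 5.57% lower in U-2 OS. SLBP was at 36.6 and 39.5 FPKM in SK-N-SH PcTF and mock and 44.6 and 33.9 FPKM in U-2 OS PcTF and mock.

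S-phase genes had a smaller median ratio in K562 than the histone members, a difference that was not tested. Of 30 that passed, 8 were 2-fold higher with PcTF (CDT1, MCM4, MCM5, MCM7, RRM2, SLBP, TK1 and UNG) and none was lower, beside 28.6% of all genes, with a median of 0.50. PCNA, the DNA polymerase clamp, had 113 and 102 FPKM in K562 PcTF and mock. In SK-N-SH 1 of 29 was 2-fold higher (ASF1B), beside 5.79% higher and 2.67% lower of all genes. In U-2 OS none of 30 was past 2-fold, beside 12.1% higher and 5.57% lower.

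Replication-independent histone genes, whose mRNAs carry poly(A) tails and which are used outside S phase, had a median of 0.45. Of 10 that passed in K562, 4 were 2-fold higher with PcTF (H1FX, H2AFX, H3F3A and H3F3C) and 1 was lower (H1F0), beside the same 28.6% and 11.6% of all genes, and their sum was 731 and 643 FPKM in PcTF and mock. H2AFX, which can end in a stem-loop as well as a poly(A) tail, had 94.7 and 38.3 FPKM. H2AFZ had 224 and 240 FPKM and H3F3B 142 and 127 FPKM. None of the 12 that passed in SK-N-SH and none of the 11 in U-2 OS was past 2-fold. Of 7 histone chaperones that passed in each line, 1 in SK-N-SH (ASF1B) and none in K562 or U-2 OS was past 2-fold. For both lists, the shares of all genes were 5.79% higher and 2.67% lower in SK-N-SH, and 12.1% and 5.57% in U-2 OS.

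In the stable lines the members went both ways. Of 39 that passed, 15 were 2-fold higher in the U2OS-PcTF mean than in U2OS-dTF (38.5%, against 36.1% of 13017 genes) and 8 were 2-fold lower (20.5%, against 14.5% of genes). The median log2 ratio was 0.63 against 0.52 over all genes. The higher share was close to the background. In this comparison 65 of 97 non-histone genes with loci under 800 bp (67%) and 138 of 193 other RNAs without a poly(A) tail were 2-fold higher, and their part in the histone ratios was not tested. All genes with at least 1 FPKM in both columns had a median log2 ratio of 0.31, and after subtracting it 13 members were higher and 11 lower. Taking the transient library out of the mean by arithmetic gave 14 higher, 8 lower and a median of 0.31 for the pair of stable U2OS-PcTF libraries. The mean column averages 3 libraries, and so lists fewer members at 0 (19) than U2OS-dTF does (34).

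The 2-fold calls differed by class there, but some of them rested on the filter. All 5 H3 members that passed and 6 of 11 H2B members were 2-fold higher in the U2OS-PcTF mean, and no member of either class was 2-fold lower. Apart from HIST1H3B (24 reads in U2OS-dTF), the H3 members had little there: HIST1H3A had 3 reads, HIST1H3H 1 read, HIST1H3E 0 reads, and HIST1H3D 0.864 FPKM in its shared locus. HIST1H3D, HIST1H3E and HIST1H3H, and the H2B members HIST1H2BE, HIST1H2BL and HIST1H2BN, were under 1 FPKM in U2OS-dTF. They passed the filter through the mean column alone, so they could not have been called lower. HIST1H2BF had 600 FPKM in the U2OS-PcTF mean and 172 FPKM in U2OS-dTF, and HIST1H2BJ 36.5 and 4.36 FPKM. Of 9 H4 members, 4 were 2-fold lower (HIST1H4B, HIST1H4H, HIST1H4K and HIST4H4) and 2 were 2-fold higher. HIST1H4K passed the filter through U2OS-dTF alone, and the 2 higher members, HIST1H4A and HIST1H4D, through the mean column alone. HIST1H4H had 24.7 and 68.9 FPKM in the U2OS-PcTF mean and U2OS-dTF, while HIST1H4E, with 21.2 and 39.8 FPKM, did not pass 2-fold. The H4 sum was 79.9 FPKM against 167 FPKM in U2OS-dTF, and the H3 sum 58.2 FPKM against 18.9 FPKM. The highest ratios came from members listed at 0 in U2OS-dTF: HIST1H2BN (6.36 FPKM in the U2OS-PcTF mean), HIST1H3E (3.87 FPKM), HIST1H2BE (1.70 FPKM) and HIST1H4D (1.21 FPKM).

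The testis H2A gene HIST1H2AA was the lowest ratio of any comparison. It had 13.4 FPKM in U2OS-dTF (23 reads) and was listed at 0 in the U2OS-PcTF mean, in both K562 and both SK-N-SH libraries and in U-2 OS PcTF, with 0.691 FPKM (1 read) in U-2 OS mock. HIST1H1D, at 0.0399 FPKM in the U2OS-PcTF mean, was next. As U2OS-dTF is 1 library of 1 isogenic line by the labels, a difference of that line and an effect of the chromodomain cannot be told apart. Of 30 S-phase genes, 2 were 2-fold higher in the U2OS-PcTF mean and 7 lower, and of 20 processing factors 9 were higher and 1 lower, beside 36.1% higher and 14.5% lower of all genes. The higher factors include NPAT (34.0 and 12.9 FPKM), CASP8AP2 (30.7 and 9.31 FPKM), ZNF473 (10.1 and 2.21 FPKM) and LSM11 (1.07 and 0.220 FPKM). SLBP had 44.1 FPKM against 62.8 FPKM in U2OS-dTF. The part of these genes in the histone ratios was not tested.

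**Figure D5:**
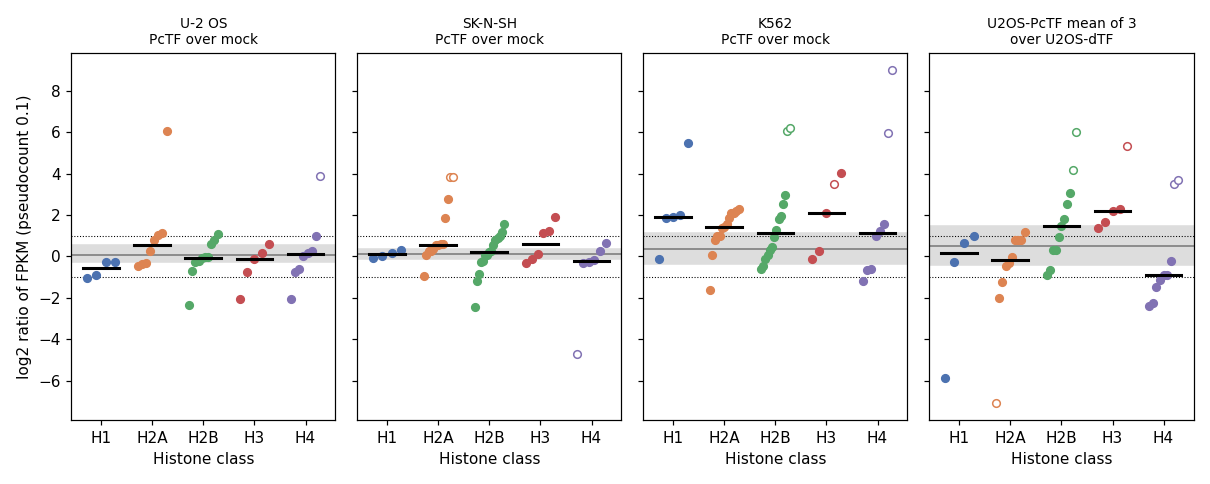
Log2 ratio of each member that passed the filter (points, by class, open where 1 value is listed at 0) in the 4 comparisons, PcTF over its control, with class medians (black bars), the median of all genes (grey line) and their middle 50% (grey band), and dotted lines at 2-fold. K562 class medians lie between 1.11 and 2.08, and U-2 OS class medians between -0.58 and 0.53. In the stable lines H3 and H4 part (2.19 and -0.91), where some members passed the filter through 1 column alone.

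Across the 3 transient comparisons, 2 members were 2-fold higher in all: HIST1H2AH and HIST1H2BE. Both were low, with at most 12.1 FPKM and 6.77 FPKM in any of these libraries, and of their 6 counting intervals that of HIST1H2BE in K562 alone left out 1. HIST2H2AC was 2-fold higher in U-2 OS and K562 and was at 1.52-fold in SK-N-SH (28 and 15 reads in PcTF and mock, interval 0.784 to 3.06). The testis H3 gene HIST3H3 was seen as 1 read in U-2 OS PcTF and listed at 0 in the other 6 single libraries, and HIST1H2BA in all of them.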

How the data were processed

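RNA-seq levels came from 9 of 10 libraries. A library of U-2 OS cells transfected with the dTF plasmid was not analysed here. Per the study's methods, cDNA was amplified from total RNA with NuGEN Ovation single primer isothermal chemistry and read as 50-base single ends, then aligned with TopHat 2.1.0 to hg19. The authors deposited 4 Cuffdiff tables of FPKM values, 1 pair of columns each. The authors' columns of fold changes, test statistics, p-values and calls were not used. The 3-library mean was deposited without its replicates, and the U-2 OS PcTF library enters both it and the transient comparison.

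Members and lists were chosen with earlier results of these data known. Ratios were log2((FPKM + 0.1)/(FPKM + 0.1)) among genes of at least 1 FPKM in either column. Past 2-fold means a log2 ratio of at least 1 or at most -1. Genes with a failed or overfull status (10) were left out. Reads were recovered from FPKM, locus length and an assumed fragment length of 200 ± 80 bases. A run on simulated data used the same fragment length, so it cannot test that assumption. Named members are the 2 most abundant per class, the 4 highest and 2 lowest ratios per comparison, testis members and near-identical copies. Other members in the text were named after their values were seen. Alternatives were other pseudocounts, filters, centring on the median of all genes, leaving out near-identical copies, a derived mean of the stable libraries and a read minimum. Loci, strands and sequences were read from GRCh37 (hg19) with GENCODE annotation, and promoters from RefSeq. Python 3.11.15 with numpy 2.4.6, pandas 2.3.3, scipy 1.17.1 and matplotlib 3.10.9 was used.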

Additional observations from a re-analysis of the deposited data

Results flagged for a closer look

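In 3 members the ratio was past 2-fold higher in K562 and past 2-fold lower in another line. The differences between lines were not tested, since each group has 1 library. HIST1H1T had a log2 ratio of 1.91 in K562 (13 reads in PcTF and 2 in mock) and -1.05 in U-2 OS (2 reads in PcTF and 5 in mock). HIST1H2BN had 1.81 in K562 (95 reads in PcTF and 17 in mock) and -1.18 in SK-N-SH (1 read in PcTF and 2 in mock). HIST1H4B had 5.97 in K562 (7 reads in PcTF and 0 in mock) and -4.70 in SK-N-SH (0 reads in PcTF and 2 in mock).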

How the results depend on the processing

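No median ratio of the members changed sign under the alternatives run. Ratios of named members were recomputed with other pseudocounts only, which cannot change the sign of a ratio, so their signs are no check. Leaving out the near-identical copies could not change any median or count, since those copies were listed at 0 in every column. The K562 count of higher members stayed between 22 and 27, with 2 lower, and its median log2 ratio between 1.13 and 1.83. In U-2 OS the 5 higher members became 3 with a pseudocount of 1 FPKM, 8 with no filter, 2 at 5 FPKM or more and 1 among single-exon members with at least 10 reads, and the 4 lower became 7 with no filter and 2 under each of the last 2 settings. In SK-N-SH the 10 higher became 5 with a pseudocount of 1 FPKM, 15 with no filter and 4 under each of those last 2 settings, and the 3 lower became 5 with no filter and 0 under both. In the stable lines the 15 higher became 23 with no filter and 8 at 5 FPKM or more. The read minimum was chosen after seeing the data. Of 178 recomputed ratios of named members, 176 stayed within their counting interval or, where there was none, on their side of 2-fold. Without an interval, HIST1H1C in the stable lines (1.00 with a pseudocount of 1 FPKM) and HIST1H2AD in K562 (1.00 with 0.01 FPKM) crossed 2-fold. Sparse members within their intervals crossed it too with a pseudocount of 1 FPKM. They include HIST1H2AH (log2 ratio 1.14 to 0.86), HIST1H2BE (1.10 to 0.68) and HIST1H1T in U-2 OS, and HIST1H2BE and HIST1H2BN in SK-N-SH. A fit that takes the 3 lines as pairs was not run. With 1 read of a short member worth about 1 FPKM, low members cannot be ranked.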
